A study of Vaccinium virgatum with 9 samples.

Results

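Fruit of rabbiteye blueberry given potassium sulfate at flowering was compared, gene by gene, with fruit of plants given water. The comparison held 6 of the 9 libraries of the series, 3 of potassium at flowering and 3 of water, chosen by the treatment and stage in their labels, and all 38665 genes of the count table entered it. The plants were 7 years old, of the cross Menditoo × Tifblue, and grew 1 to a pot in a common substrate that already held potassium. Plants of the first group received 10 g of fertilizer, given as potassium sulfate in water, at the flowering stage, and the control plants received the same amount of water alone. Fruit from the upper layer was picked 90 days after flowering in both groups, with 12 to 18 fruits pooled per replicate. The other 3 libraries, from plants given the salt at the young fruit stage, served for the shared estimate of spread and for the values set beside them below. Potassium and sulfate were given together, so their effects cannot be told apart. Nothing in the labels ties a replicate to a plant of its own. The p-values therefore rest on the spread among these libraries alone, part of which may be technical.

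Potassium is the main inorganic cation of plant cells. It sets the osmotic pressure that drives cell expansion, activates many enzymes, and accompanies sugar loading into the phloem, which delivers sucrose to growing fruit. Blueberry fruit softens, gains sugar and turns from green to blue as it ripens, when anthocyanins, the red to blue flavonoid pigments, accumulate mainly in the skin. The title of the series names anthocyanin production under potassium as its subject. The count table gives identifiers without gene names or functions, so no gene could be placed in these pathways, no marker of fruit or of another tissue could be checked, and no sequence is shown. Of the identifiers, 28300 begin with Vadar, and the other 10365, called other loci here, carry a different prefix. Whole fruits were sampled, so fewer cells of a type and less RNA per cell cannot be told apart.

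Library totals ran from 15923402 to 16809986 counts after potassium and from 15655016 to 18424967 counts in water. After a filter on low counts, 25728 genes were tested, and they held 99.8% of the counts of every library. No 2 libraries looked like 1 library deposited under 2 names: chi-square per degree of freedom between replicates, which is near 1 for plain sampling, was 2.69 to 3.25 after potassium and 3.34 to 6.28 in water. The biological coefficient of variation that edgeR fitted within a group was 6.82% after potassium and 8.76% in water. Root mean square distances on log2 CPM (counts scaled to a common library total) were 0.477 to 0.487 among potassium libraries, 0.423 to 0.453 among water libraries, and 1.02 to 1.06 for the 9 pairs of a potassium with a water library. Every pair across the groups thus lay farther apart than any pair within a group.

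The comparison asked which transcripts differ in fruit at picking when potassium had been given at flowering. After potassium 6263 genes rose (24.3% of those tested) and 6272 fell (24.4%), which makes 12535 genes, 48.7%, past an adjusted p of 0.05 in edgeR's quasi-likelihood test. Over all called genes the median fall was larger than the median rise, but not within every class of counts, as given with the classes below. Among genes that rose, the middle 80% had log2 fold changes (potassium at flowering over water) between 0.25 and 1.90, with a median of 0.54. Among those that fell, the same range was -2.61 to -0.32, with a median of -0.93. A change of at least 1.5-fold was reached by 2901 of the genes that rose (46.3%) and by 4400 of those that fell (70.2%).

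The excess of falls held at each larger fold. At least 2-fold changes were 1564 rises and 2918 falls, together 17.4% of genes tested. At least 4-fold there were 569 rises and 1074 falls, at least 8-fold 255 and 449, and at least 16-fold 106 and 229. In 19 of the rises the water group held no count, and in 40 of the falls the potassium group held none, so the fitted fold of these genes depends on the prior count of the fit. The balance of all calls moved with the scaling: under library size alone the log2 fold change had a median of -0.13 over the genes tested instead of -0.02, and the calls divided into 4846 rises and 7719 falls. The excess of falls at 2-fold held in each of the 4 scalings run, with 1346 rises and 3372 falls under library size alone.

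**Figure D1:**
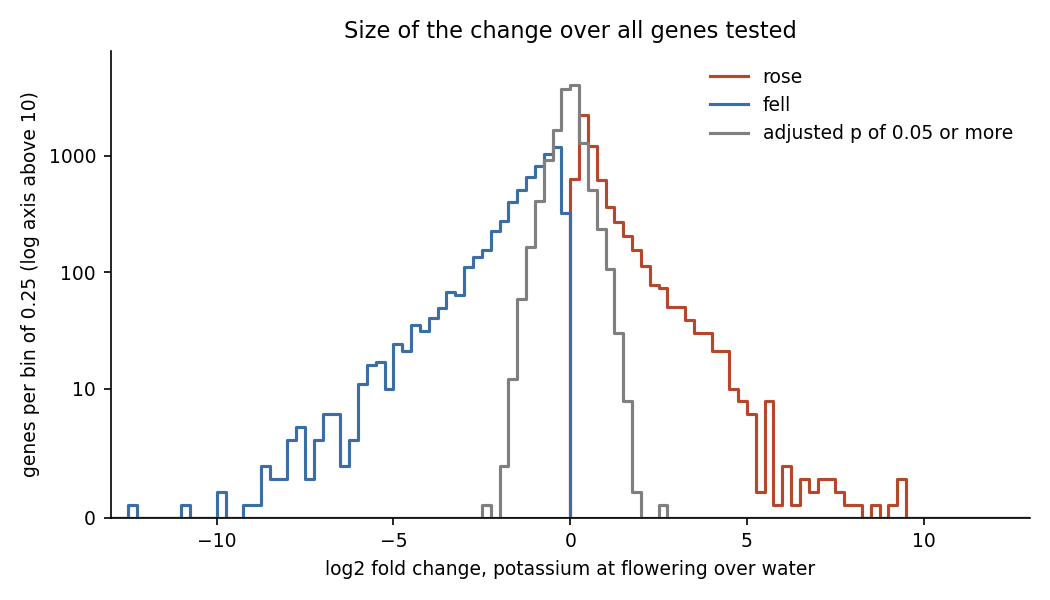
Number of tested genes per bin of 0.25 in log2 fold change, potassium at flowering over water (y axis logarithmic above 10), for genes that rose, genes that fell and genes with an adjusted p of 0.05 or more. The line of genes that fell reaches farther from 0 than the line of genes that rose, with 1074 falls against 569 rises of at least 4-fold.

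Nearly all called genes parted in the plain values. These come from the same libraries as the calls, so the numbers below describe the calls and add no test. In 6031 of the genes that rose, 96.3%, all 3 potassium libraries had more CPM than any water library, and in 6015 of those that fell, 95.9%, all 3 had less. Over all genes tested, groups did not overlap in 27.4% with potassium higher and in 28.3% with potassium lower. The other 489 called genes had at least 1 library within the range of the other group. They were 232 rises and 257 falls. Among genes that missed the threshold, 1023 had every potassium library above water and 1277 had every potassium library below it.

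A gene that missed the threshold was not thereby shown to be steady. Of the 13193 such genes, the 95% interval of the fold change lay within 1.5-fold in either direction for 5492 (41.6%) and within 1.2-fold for 1607 (12.2%). The genes within 1.5-fold had a median of 18.4 CPM in water, and the other genes that missed the threshold had a median of 1.43 CPM.

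The sum of the changes was a large move of counts. The 6263 genes that rose took 58.5, 58.6 and 58.2% of all counts in the potassium libraries, against 41.8% in each of the 3 water libraries. The 6272 that fell took 18.3, 18.2 and 18.4% after potassium, against 33.2, 33.3 and 33.2% in water. Genes that missed the threshold held 23.0 to 23.1% after potassium and 24.7 to 24.8% in water. These genes were sorted by the same values, so the sums describe the size of the move and test nothing. Replicates differed by less than 1 percentage point in each sum.

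A small part of the genes carried much of that move. Of the CPM gained by genes that rose, 50% lay in 234 genes, or 3.74% of them, and 15.2% lay in 10. Of the CPM lost by genes that fell, 50% lay in 157 genes, 2.50% of them, and 17.3% lay in 10. The counts themselves were also concentrated. Of the 25728 genes tested, 1061 after potassium and 1187 in water held 50% of the counts (means of 3 libraries). A skew of this kind was thus not particular to the move. CPM are not corrected for transcript length, which the table does not give. Ranks and classes below therefore order genes by the counts they took, and do not order transcripts by number of molecules.

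The 2 genes with the largest gain, among Vadar genes with groups that do not overlap, were Vadar_g7967.v1.2 and Vadar_g40618.v1.2. Vadar_g7967.v1.2 took more counts than any other gene in both groups, with 16746, 18019 and 16118 CPM after potassium, against 8981, 9661 and 7843 CPM in water. All 3 potassium libraries stood above all 3 water libraries, and the log2 fold change was 0.94 ± 0.05 (SE, edgeR adjusted p = 3.84e-13). This 1 gene made up 4.03% of all the CPM gained.

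Vadar_g40618.v1.2 had 6833, 6906 and 6435 CPM after potassium, against 641, 689.9 and 649.5 CPM in water. Its log2 fold change was 3.35 ± 0.05 (SE, edgeR adjusted p = 4.02e-24), a 10.2-fold rise that moved it to the third place by counts after potassium, against place 127 in water. The gap between the groups was far wider than either spread: the means were 6725 ± 254 CPM and 660.0 ± 26.3 CPM (SD, n = 3 each, potassium first).

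The 2 genes with the largest loss were Vadar_g2639.v1.2 and Vadar_g4893.v1.2. Vadar_g2639.v1.2 had 1300.3, 1333 and 1395 CPM after potassium, against 5344, 5294 and 5865 CPM in water. It fell 4.10-fold, a log2 fold change of -2.03 ± 0.05 (SE, edgeR adjusted p = 2.01e-20), and stood at place 55 by counts after potassium, against place 4 in water. For Vadar_g4893.v1.2 the values were 2898, 2766 and 2908 CPM after potassium, against 6246, 5596 and 6884 CPM in water. Here the log2 fold change was -1.13 ± 0.06 (SE, edgeR adjusted p = 3.23e-14), and the water libraries spread more widely (SD 644 CPM) than the potassium libraries (SD 79.2 CPM), without overlap. What these 4 genes encode is not given in the table. All 4 were also among the 19.6% of tested genes that differed between potassium at flowering and at young fruit. They were among the 16.8% in which every flowering library stood above every young fruit library, too. Having been picked for large differences in CPM, they take many counts, where small differences are detected. The shares over all genes are therefore not the background of genes like them.

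**Figure D2:**
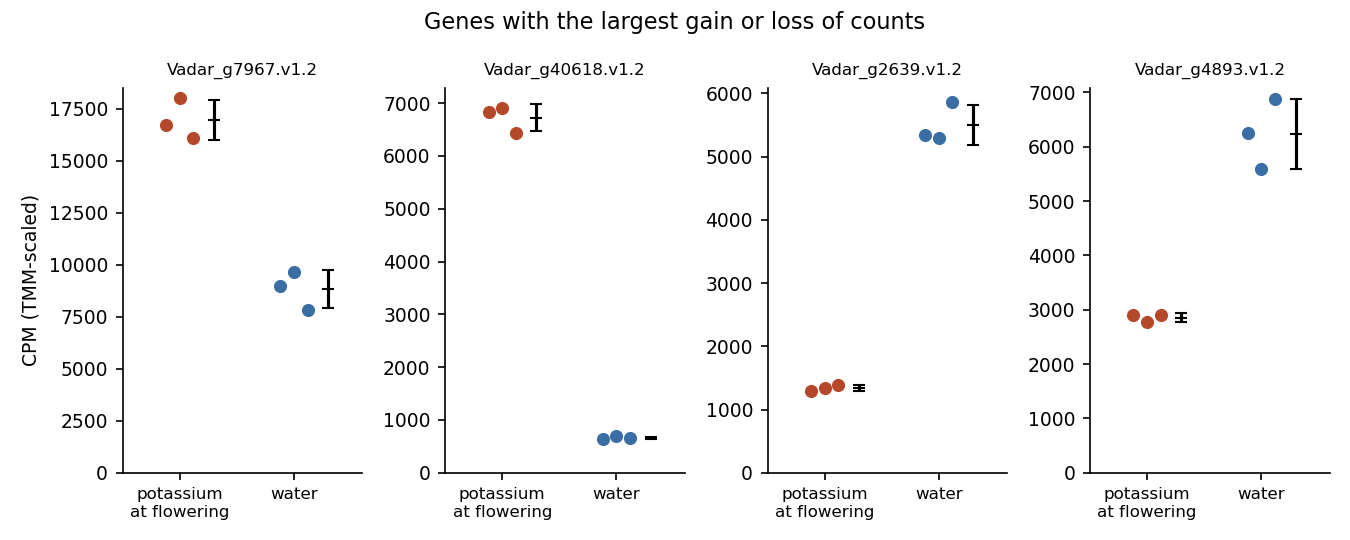
CPM per library (TMM-scaled, linear axes from 0) of the 2 Vadar genes with the largest gain and the 2 with the largest loss. Points are libraries of potassium at flowering and of water, and bars give the mean and SD of 3. In each panel the groups do not overlap, and the widest relative gap is that of Vadar_g40618.v1.2, 6725 against 660.0 CPM.

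Among the 10 largest gains, 7 lay between 1.25-fold and 2.16-fold and concerned genes that already took many counts in water. The other 3 were Vadar_g40618.v1.2 and 2 genes that started low, described here without identifiers. A Vadar gene had 2558, 2630 and 2658 CPM after potassium, against 150.7, 138.2 and 153.0 CPM in water. Its log2 fold change of 4.15 ± 0.05 (SE) had the smallest adjusted p of all genes (edgeR, 2.70e-25). One of the other loci had 1498, 1581 and 1416 CPM after potassium, against 21.8, 26.2 and 19.6 CPM in water, a 66.2-fold rise (log2 fold change 6.05 ± 0.08, SE, edgeR adjusted p = 2.43e-24). The 10 largest losses were all of 1.53-fold to 5.60-fold. The deepest of them was another locus with 649.0, 670.1 and 674.3 CPM after potassium, against 3696, 3953 and 3509 CPM in water.

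**Figure D3:**
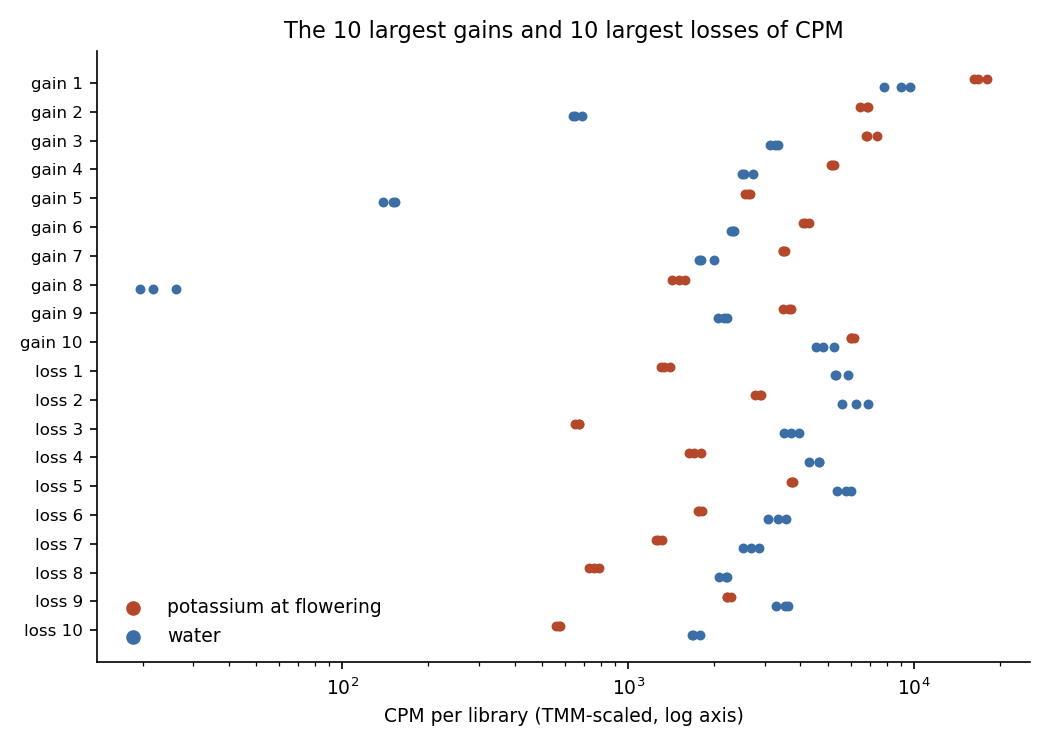
CPM per library (TMM-scaled, logarithmic axis) of the 10 genes with the largest gain and the 10 with the largest loss of mean CPM, potassium at flowering above water in each row. Gains 2, 5 and 8 start far below the other gains in water, while the 10 losses start at 1707 CPM or more on average.

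The ranking by counts shifted at its very top. Only 4 of the 10 genes with most counts after potassium were also among the 10 of water. All 6 that entered rose and all 6 that left fell. Most moved a short way: those that entered stood at places 11, 12, 13, 17, 21 and 127 in water. Those that left stood at places 15, 26, 31, 35, 55 and 158 after potassium. Of the first 100, 71 were shared between the groups, and of the first 1000, 811 were. The 29 genes that entered the first 100 all rose, and of the 29 that left it 27 fell. Entry and exit follow in part from the changes themselves, so these counts add no test.

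Some genes moved far in this order of the 25728 genes tested. The 66.2-fold locus stood at place 48 after potassium, against place 7805 in water. A Vadar gene with 230.2, 245.9 and 236.4 CPM after potassium, against 7.52, 7.12 and 7.95 CPM in water, stood at place 687 after potassium, against place 13071 in water (edgeR adjusted p = 2.43e-24). In the other direction, a Vadar gene had 2.56, 3.56 and 2.94 CPM after potassium, against 177, 194 and 173 CPM in water (log2 fold change -5.91 ± 0.10, SE, edgeR adjusted p = 1.12e-22). It had place 16424 after potassium, against place 883 in water. A second Vadar gene had 4.03, 4.72 and 3.90 CPM after potassium, against 229, 219.8 and 229 CPM in water, a 53.6-fold fall (edgeR adjusted p = 6.17e-22) to place 15048 after potassium, against place 628 in water. Replicates of these genes lay close together on both sides, and the changes were many times their spread. Not every far mover was as tight. A gene of the other loci had 8.24, 3.69 and 9.78 CPM after potassium, against 163, 241 and 132 CPM in water.

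The share of genes that rose was highest among genes of high counts, where the share of genes called was highest too. Genes were classed by their mean CPM in the young fruit potassium libraries, which are on neither side of the comparison, although they too received potassium. Over 100 CPM there were 2135 genes. Among them 63.1% had risen and 17.4% had fallen, and the median change was 0.27 on the log2 scale. The 9269 genes at 10 to 100 CPM had 36.9% that rose and 23.1% that fell. At 1 to 10 CPM the balance was the other way, with 12.4% that rose and 26.3% that fell among 10080 genes, and below 1 CPM 5.82% rose and 26.0% fell among 4244.

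How genes were classed mattered most at the low end. With classes by the water libraries, 19.4% of the genes below 1 CPM rose and 5.27% fell, the reverse of the balance above. With classes by the flowering libraries themselves, 3.36% of that class rose and 30.1% fell. The filter on low counts asked for counts in enough libraries, whatever their group. A gene scarce in the classing libraries could thus enter the test through the counts of another group. The balance below 1 CPM therefore depends in part on the filter and on the classing libraries, and no direction is drawn from it. Over 100 CPM rises exceeded falls under each of the 3 ways to class with TMM scaling, by 47.0 against 31.7% with classes by water. Under library size scaling they did so with classes by either potassium group (52.7 against 23.6% by young fruit), and turned with classes by water, where 36.7% rose and 39.2% fell. From 1 to 10 CPM falls exceeded rises under all 6 pairings of class and scaling. The class from 10 to 100 CPM turned under library size scaling with each way to class, with 27.3% that rose and 30.4% that fell by young fruit. In all 6 pairings the share that rose was highest over 100 CPM, but so was the share called in either direction. With classes by water the share that fell was also highest there, at 31.7% with TMM and 39.2% with library size. Of the calls in classes by water (TMM), 78.6% were rises below 1 CPM and 59.7% over 100 CPM.

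**Figure D4:**
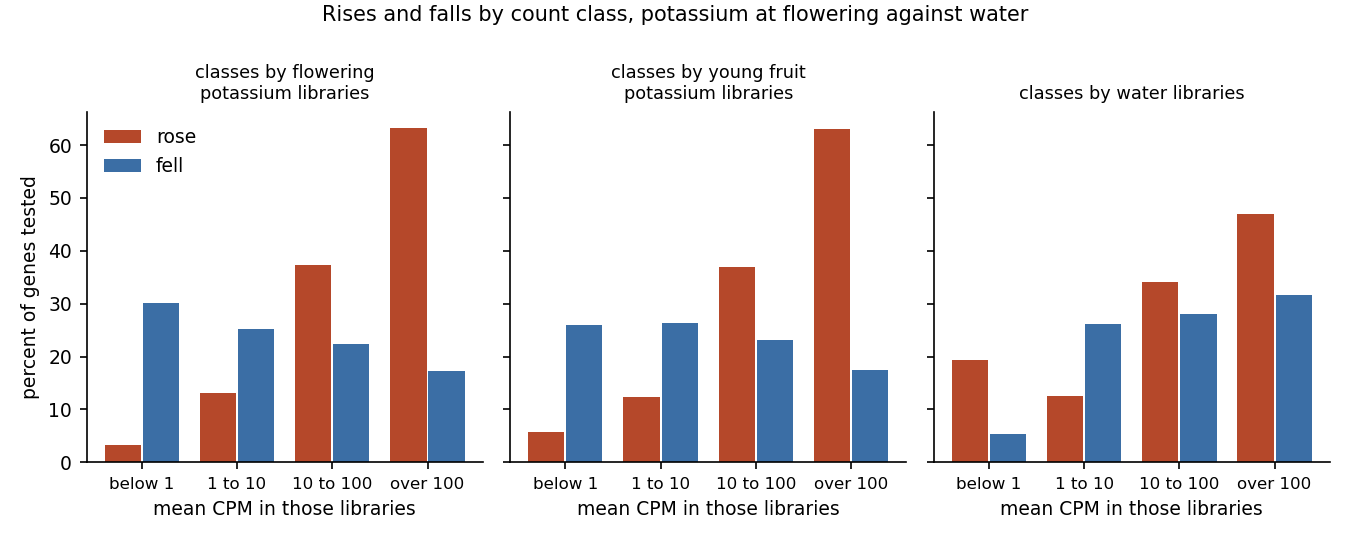
Percent of tested genes that rose or fell after potassium at flowering, by class of mean CPM, with the classes set by the flowering potassium, the young fruit potassium or the water libraries (TMM scaling). Rises exceed falls over 100 CPM in all 3 panels (under library size scaling this turns with classes by water), and below 1 CPM the order turns with classes by water.

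The class of highest counts had the highest share of calls, and that of lowest counts the largest median change among calls. With classes by the young fruit libraries, over 100 CPM 80.5% of genes were called, but the median size of a call was 0.43 on the log2 scale, and 50 rises and 12 falls reached 4-fold. Below 1 CPM 31.9% were called, the median size was 2.13, and 140 rises and 597 falls reached 4-fold. With classes by water that split turned, to 379 rises and 103 falls of at least 4-fold below 1 CPM. With either way to class, genes this scarce could pass the filter on low counts through another group. The sizes and splits below 1 CPM are therefore in part a matter of which genes were tested. Within classes by young fruit, the median rise was larger than the median fall below 1 CPM (2.22 against -2.10), at 1 to 10 CPM (1.12 against -1.03) and over 100 CPM (0.44 against -0.35), and smaller at 10 to 100 CPM (0.44 against -0.50). Within classes by water the fall was larger at 1 to 10, 10 to 100 and over 100 CPM (0.38 against -0.47 in the last). Precision differed as widely, again by young fruit classes: the median SE of a log2 fold change was 0.06 over 100 CPM, 0.09 at 10 to 100 CPM, 0.25 at 1 to 10 CPM and 0.51 below 1 CPM. The smallest change called was 0.10 on the log2 scale over 100 CPM and 0.82 below 1 CPM, so small changes of low-count genes were not detectable at this depth.

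The libraries of potassium at flowering spread their counts over fewer genes than those of water. At an equal total of counts, 23627, 23418 and 23748 genes had at least 10 counts after potassium, against 24890, 24966 and 24916 in water. The effective number of genes, the exponential of the Shannon entropy of the count shares, was 5291 ± 52.7 after potassium and 5898 ± 37.7 in water (SD, n = 3 each). To reach 50% of the counts took 1067, 1057 and 1076 genes after potassium, against 1202, 1199 and 1184 in water. All 3 measures were lower in every potassium library than in any water library. Each of the 5 measures compared gave an exact permutation p of 0.10, two-sided (0.10 also after adjustment), the smallest that 3 libraries against 3 allow.

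**Figure D5:**
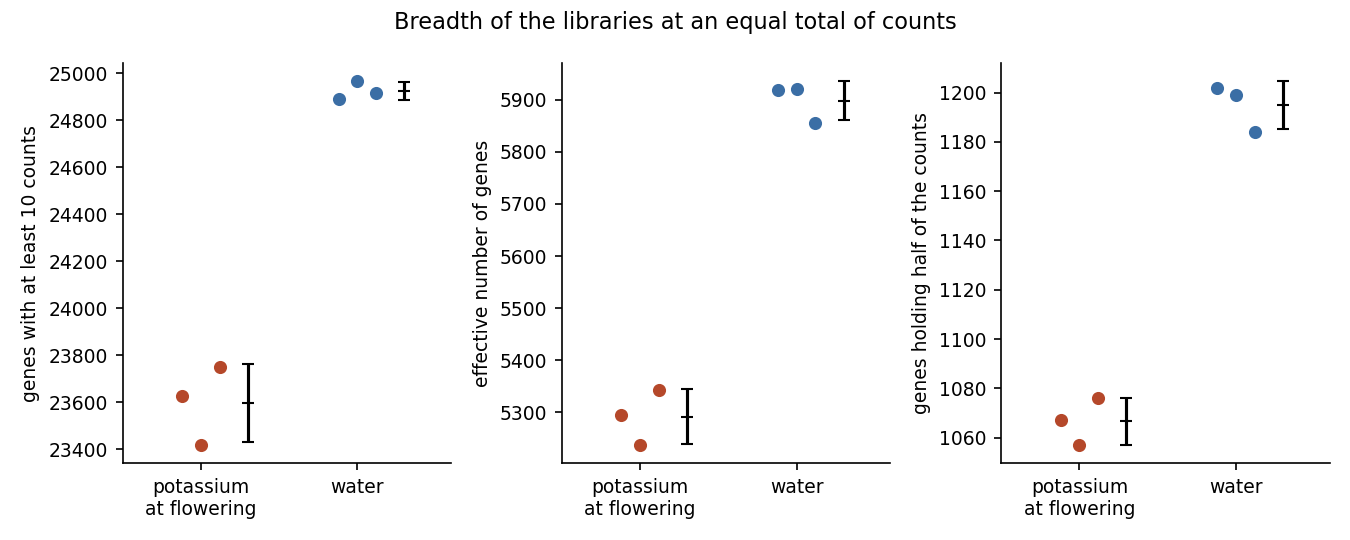
Genes with at least 10 counts, effective number of genes and number of genes that hold 50% of the counts, per library at an equal total of counts (points), with mean and SD of 3 (bars). The axes do not start at 0. The potassium at flowering libraries lie below all water libraries in each panel, at 1057 to 1076 against 1184 to 1202 genes in the last.

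Some genes had counts in 1 group alone. With 0 counts in every potassium library and at least 10 in each water library there were 41 genes, of which 33 were Vadar genes. Most were scarce in water, with a median of 82 counts over the 3 libraries, and the highest had 600, 597 and 792 counts there. Against a floor of 3 counts over the potassium group, that gene was at least 601-fold lower after potassium, and it had 12, 7 and 9 counts in the young fruit libraries. The reverse pattern, 0 counts in water and at least 10 in each potassium library, was met by 11 genes, 7 of them Vadar genes. The highest of these had 81, 81 and 61 counts after potassium, at least 82.0-fold higher against the same floor over the water group. All 11 also had counts in the young fruit libraries, as had 31 of the 41. The first number was 64 without potassium replicate 1, and the second was 17 to 19 without any 1 water library. Leaving out a library loosens the rule, so neither number could fall.

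Large changes were also counted for Vadar genes and other loci apart. At least 4-fold, 1.61% of the Vadar genes tested rose and 4.61% fell, while of the other loci 4.30% rose and 2.64% fell. Changes of any size were called in 26.0% of Vadar genes upward and 26.5% downward, and in 18.6 and 17.2% of other loci. The other loci took fewer counts, with a median of 1.96 CPM in water against 11.6 CPM, and neither the difference between the classes nor the part of the counts in it was tested.

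Most calls did not rest on 1 library. Each of the 6 libraries was left out in turn. In all 6 fits, 9595 of the 12535 calls (76.5%) kept their direction and passed the threshold. No gene was called in the opposite direction in any of these fits. They share all but 1 library with the main fit, so an opposite call was unlikely from the start. Of the calls of at least 2-fold 85.1% were kept in all 6 fits, and of those of at least 4-fold 96.2%. Single libraries stood out in a few genes: 6 genes had 1 library with at least 5 CPM that exceeded the others of its group at least 3-fold. The most extreme had 1912, 52 and 20 counts after potassium, against 19, 19 and 8 in water, and its log2 fold change of 5.52 (edgeR adjusted p = 0.00016) became 1.40 (edgeR adjusted p = 0.0212) without potassium replicate 1.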

How the data were processed

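RNA was sequenced from whole fruit. Per the labels' protocols, RNA was extracted with Trizol and the kit for the libraries was NEBNext Ultra RNA. The values deposited are raw counts per gene, as whole numbers, in 1 table with a column for each library. HISAT2 2.1.0 and StringTie 1.3.4d are named in the submitters' processing notes. Counting tool, genome build, annotation and strand setting: not given in the sources used here. Thus reads of near-identical gene copies may be split or merged. All 9 columns matched a sample.

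Genes were kept by filterByExpr (minimum count 10, minimum total 15) and scaled by TMM. edgeR 4.0.16 in R 4.3.3 fitted the quasi-likelihood test to all 9 libraries, 1 term per group, with Benjamini-Hochberg adjustment over 25728 genes and a threshold of 0.05. The SE of a log2 fold change was taken as its size over the square root of F. Genes named are the 2 Vadar genes that rose and the 2 that fell with the largest difference in mean CPM, among called genes whose groups do not overlap. Genes described without identifiers, and the genes with 1 library apart, were picked after their values were seen. The measures, classes and rules were chosen with earlier results of these data known. Gene lists could not be matched to identifiers and were not used. Intervals and floors cover counting error or spread between libraries only. Alternatives covered scaling, filters, limma 3.58.1 (voom), DESeq2 1.42.0, the 2 groups alone, a replicate block and each library left out.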

Additional observations from a re-analysis of the deposited data

Results flagged for a closer look

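All 4 genes named above differed between the timings in edgeR's direct test of the 2 potassium groups, as did 19.6% of all genes tested. Differences were common among genes of high counts, so shares over all genes are not the background of genes like these. Each of the 10 genes with most counts in water passed 0.05 in that test (largest edgeR adjusted p = 0.00914). Among the 10 after potassium at flowering, only the gene at place 8 did not (edgeR adjusted p = 0.0932). The 2 potassium groups share one set of water libraries in their comparisons with water. Vadar_g7967.v1.2 averaged 16961 ± 968 CPM after potassium at flowering and 14790.2 ± 559 CPM after potassium at young fruit (SD, n = 3 each), a log2 difference of 0.20 ± 0.05 (SE, edgeR adjusted p = 0.00914). Vadar_g40618.v1.2 averaged 6725 ± 254 and 3896 ± 234 CPM in the same order, with a log2 difference of 0.79 ± 0.04 (SE, edgeR adjusted p = 3.22e-12). Both genes that fell against water were higher after potassium at flowering than at young fruit. Vadar_g2639.v1.2 differed by 0.47 ± 0.05 (SE, edgeR adjusted p = 3.53e-08) and Vadar_g4893.v1.2 by 0.53 ± 0.06 (SE, edgeR adjusted p = 1.38e-07), on the log2 scale. Their young fruit means were 968 and 1984 CPM. In each of the 4 genes all 3 flowering libraries stood above all 3 young fruit libraries, as in 16.8% of all genes tested.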

How the results depend on the processing

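The count of changed genes lay between 11449 and 11866 without any 1 library and between 9896 and 13321 under 10 other settings of scaling, filter, tool, groups and block and a threshold of 0.01. A null of a change within 1.5-fold left 4476. DESeq2 called 11952, of which 11931 were also edgeR calls. Changes of at least 2-fold numbered 4404 to 4560 without any 1 library, 2254 where a mean of 50 counts was required (fewer genes tested) and 2408 against a null of a change within 2-fold. Genes at 0 after potassium were 46 to 64, and genes at 0 in water 13 to 19, without any 1 library. With a minimum of 5 counts they were 96 and 33. Each of these settings loosens the rule, so neither number could fall below that of the main rule. Of the changed genes below 1 CPM 18.3% had risen, and 78.6% with classes by water, 10.1% with classes by flowering potassium and, under library size scaling, 15.4, 77.3 and 8.89% with classes by young fruit, water and flowering potassium. At 1 to 10 CPM 32.0% had risen, 34.4% with classes by flowering potassium and 24.2, 24.4 and 26.0% under library size scaling in the same order of classes. At 10 to 100 CPM 61.5% had risen, 55.0% with classes by water and 47.3, 41.0 and 48.2% under library size scaling. Over 100 CPM 78.4% had risen, 59.7% with classes by water and 69.1, 48.4 and 69.0% under library size scaling. Library size scaling joined to classes by water or by flowering potassium was chosen after seeing the data. The cause of these shifts was not tested. The 4 named genes kept direction and call in all 64 alternative values. These genes were picked for large differences in the same libraries, so this was likely from the start. The replicate number as a block gave 12699 changed genes. Same-numbered libraries of the 2 groups deviated together with correlations of -0.009, 0.022 and 0.023, so the numbers were not taken to pair them. Depth limits the low-count genes, as their SE shows.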

Other observations

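Vadar genes with successive identifier numbers changed somewhat alike. Over 10962 pairs whose numbers differ by 1, Pearson's r of the log2 fold changes (potassium at flowering over water) was 0.15 and Spearman's rho 0.13. At a distance of 2 numbers r was 0.07 over 10283 pairs, and at 10 numbers 0.01 over 9193 pairs. Where both genes of a pair were called, 58.0% shared a direction at a distance of 1 and 49.2% at a distance of 100. All pairs come from the same 6 libraries, so these values are a description across genes, which are not independent replicates. Whether the numbers follow the order of genes on chromosomes is not given in the table, and near-identical neighbours may share reads. The longest run of successive numbers called in 1 direction was 6, for rises and for falls. Runs of 3 or more numbered 155 for rises and 151 for falls. Of the Vadar genes tested 26.0% rose and 26.5% fell, so runs also arise where neighbours are unrelated. Their number was not tested. Runs of 3 or more genes changed at least 4-fold numbered 0 for rises and 6 for falls, where 1.61% of the Vadar genes tested rose and 4.61% fell that far.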
